A study of Sus scrofa with 2 samples.

Results

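The insulin-like growth factor (IGF) axis was followed through cultured porcine adipose-derived stem cells (ADSCs), the fibroblast-like cells that grow out of digested fat. Its 10 genes were taken by symbol from the 28155 genes of the deposited matrices: the ligands IGF1 and IGF2, the binding proteins IGFBP2, IGFBP3, IGFBP4, IGFBP5, IGFBP6 and IGFBP7, and the receptors IGF1R and IGF2R. All 10 were found, each under a single row. The labels give 1 group of 2 single-cell RNA libraries, numbered 1 and 2, both labelled healthy and from Bama miniature pigs. Fat was taken from the chest, and the cells were grown for 3 generations over at most 14 days before they were frozen. No treatment, sex or age is given. Nothing in the labels ties the libraries to different animals or cultures, so every p-value below speaks only for these 2 libraries, whose spread may be technical. In the main fits it weighs the difference between classes within the libraries against a spread borrowed largely from all genes. Barcodes with at least 1000 genes were kept as cells, 10559 in library 1 and 11984 in library 2.

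IGF1 and IGF2 are secreted hormones that promote growth, survival and division. Both signal mainly through IGF1R, a receptor tyrosine kinase that activates PI3K, AKT and MAP kinases, whereas IGF2R carries IGF2 to lysosomes and does not signal in that way. The binding proteins hold the ligands in the fluid around the cell, and proteases such as PAPPA release them by cutting the binding proteins. In fat tissue, IGF1 made by stromal cells acts on growth and on the formation of fat cells. Below, ligands, binding proteins and receptors are described in each library, in cells classed as cycling against cells classed as non-cycling, and among the latter.

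By the RefSeq annotation of Sscrofa11.1, the build named in the submitters' notes, all 10 are protein-coding genes. IGF1 lies at chr5:81762027-81909253 and IGF2 at chr2:1469183-1496417, with the insulin gene INS 425 bases away. IGFBP2 (chr15:118822092-118850985) and IGFBP5 (chr15:118861816-118877787) are direct neighbours, 10831 bases apart, and IGFBP3 (chr18:50002921-50009425) stands 9062 bases from IGFBP1. IGFBP4 lies at chr12:21966524-21980043, and the next gene to its right, 21257 bases away, is TOP2A, a topoisomerase that is among the genes used here to recognise dividing cells. IGFBP6 lies at chr5:18352884-18357225, IGFBP7 at chr8:56283089-56357822, IGF1R at chr1:137383623-137691038 and IGF2R at chr1:7369485-7472480. IGFBP7 overlaps POLR2B, and IGF1R overlaps PGPEP1L, at 1 edge each, and 2 long non-coding RNA genes lie within IGF1. How reads from the shared stretches were counted was not given in the sources used here, and the counts of these genes could be affected. The genes span very different lengths (4.34 kb for IGFBP6 and 307 kb for IGF1R), and levels are therefore compared between groups of cells for 1 gene at a time and not between genes.

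The cells of library 1 held 209737159 unique molecular identifiers (UMIs, which count each captured molecule once) and those of library 2 245421850, with medians of 19845 and 19651.5 per cell. Of 10 stromal markers 9 reached 10 UMIs per 1000000 (CPM) in each library, with summed levels of 6172 and 7859 CPM. The summed level of the fat cell list was 0.906 and 0.811 CPM and of the lymphocyte list 2.45 and 0.949 CPM. The endothelial list summed to 19.0 and 22.2 CPM, mostly PECAM1 and EMCN (7.17 and 7.02 CPM), with CDH5 at 0.0334 and 0.0122 CPM. The macrophage list summed to 29.2 and 22.9 CPM, mostly CD14. Within it CSF1R was at 2.69 and 0.346 CPM and PTPRC at 0.124 and 0.0570 CPM. The mural list summed to 25.3 and 36.4 CPM, mostly CSPG4 (13.1 and 16.5 CPM) and ABCC9 (7.31 and 14.2 CPM). Those of the muscle, epithelial, erythroid and liver lists were between 0.00407 and 4.07 CPM. The libraries shared 46 barcodes. Marker RNA was thus mostly that of stromal cells. The lists were summed over each library and not read cell by cell, so a minor cell type could be missed. No cell type that should lack the IGF genes was identified to measure free RNA.

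Of the ligands, IGF1 had 0.586 CPM in library 1 (exact Poisson 95% interval 0.487-0.700) and 1.17 CPM in library 2 (1.04-1.31). Only 94 and 185 cells held any IGF1 UMI (0.890% and 1.54%), and no cell held more than 10 and 11. IGF2, the ligand best known as a fetal growth factor, was at 2.18 CPM (1.98-2.39) and 1.85 CPM (1.68-2.02), with a UMI in 349 cells of each library (3.31% and 2.91%). After 5000 UMIs had been drawn at random from each cell, both ligands were found in 2 of 9581 cells in library 1 and 0 of 11598 in library 2, where the upper exact binomial bound was 0.0318%. These intervals, as all those on UMIs and cells here, cover counting error only.

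Among the binding proteins, IGFBP6, which binds IGF2 in preference to IGF1, was the one found in nearly every cell. Its level of 802 CPM (798-805) in library 1 was close to the 782 CPM (778-785) of library 2, and 96.4% and 98.2% of cells held it. IGFBP2 was at 102 CPM (100.1-103) and 99.5 CPM (98.3-101), but in only 40.3% and 41.3% of cells. IGFBP7, which binds IGFs weakly and also acts on its own in the matrix, had 46.6 CPM (45.7-47.5) in library 1, above the 22.8 CPM (22.2-23.4) of library 2. IGFBP5, a matrix-bound carrier, was at 13.1 CPM (12.6-13.6) and 18.5 CPM (17.96-19.04), and IGFBP4, which mostly restrains IGF action, at 5.10 CPM (4.80-5.42) and 3.798 CPM (3.56-4.05). IGFBP3, the main carrier of IGFs in blood, had 4 UMIs in library 1 and 6 in library 2, at 0.0191 CPM (0.00520-0.0488) and 0.0244 CPM (0.00897-0.0532). It was too scarce to be tested in any comparison below.

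Both receptors were present. IGF1R had 56.2 CPM (55.2-57.2) in library 1, below the 85.5 CPM (84.4-86.7) of library 2, in 56.2% and 70.7% of cells. IGF2R was at 33.4 CPM (32.6-34.2) and 15.1 CPM (14.6-15.6), in 42.0% and 24.6% of cells. Library 1 over library 2, the ratio of levels was 2.22 for IGF2R, 2.04 for IGFBP7, 1.34 for IGFBP4, 1.18 for IGF2, 1.03 for IGFBP6, 1.02 for IGFBP2, 0.707 for IGFBP5, 0.657 for IGF1R and 0.501 for IGF1. The ratios of the receptors thus pointed in opposite directions, with IGF2R higher and IGF1R lower in library 1, as the plot of levels by library shows. With 1 library on each side there is no replicate check and no test.

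**Figure D1:**
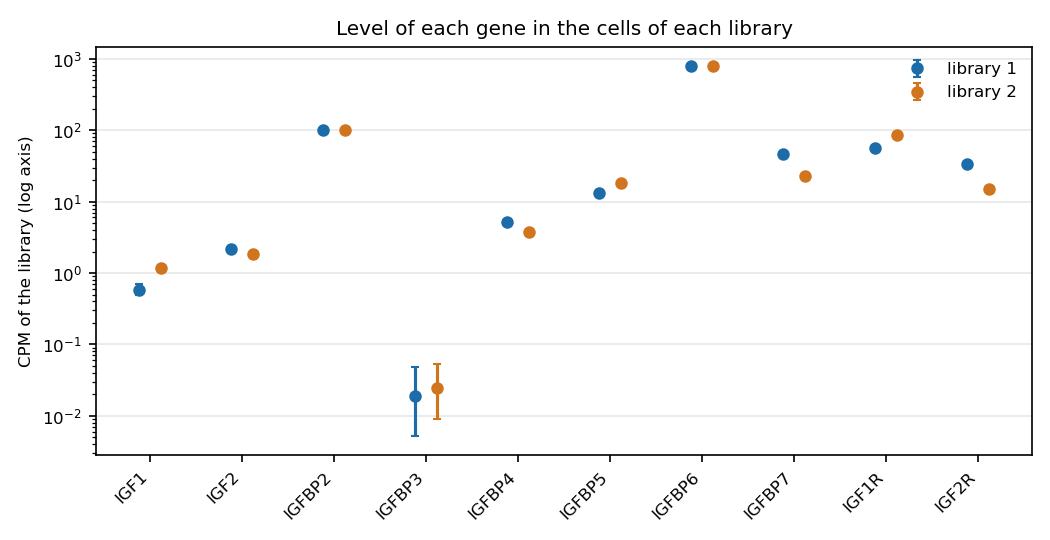
Level of the 10 genes in CPM (log axis) over all cells of library 1 (blue) and library 2 (orange), with exact Poisson 95% intervals. IGFBP2 and IGFBP6 nearly coincide, IGF2R and IGFBP7 are 2.22 and 2.04 times as high in library 1 as in library 2, and IGFBP3 rests on 4 and 6 UMIs.

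The spread of each gene over cells was then described. At an equal depth of 5000 UMIs the variance of the IGFBP2 count between cells was 2.87 times its mean in library 1 and 3.00 times in library 2, where even sampling of a uniform level gives 1. A single cell reached 16 and 21 IGFBP2 UMIs of 5000. IGFBP6 also exceeded even sampling, at 2.33 and 2.30 times. IGFBP5 stood at 1.31 and 1.59 times, IGF1 at 1.496 and 1.64, IGFBP7 at 1.34 and 1.20, IGF1R at 1.26 and 1.26, and IGF2 at 1.21 and 1.24. IGF2R (1.10 and 1.03) and IGFBP4 (1.07 and 1.02) had ratios near 1. This ratio depends on the level of a gene, and can stay near 1 for a scarce gene even where its cells differ. IGFBP4 had means of only 0.0285 and 0.0178 UMIs per cell at this depth. The ratios therefore do not rank the genes by evenness. At this depth 34.9% of cells in library 1 (exact binomial 33.9-35.8) and 38.6% in library 2 (37.7-39.5) held a UMI of either receptor, and 1.39% (1.16-1.64) and 1.57% (1.35-1.81) one of either ligand.

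Cells with signs of division were set against cells in which none of a set of cycle genes was found at reduced depth. A cell was called cycling when, after thinning to 5000 UMIs, 3 or more of 15 core cycle genes had a UMI in it, and non-cycling when none had. This gave 3855 cycling cells in library 1 and 4608 in library 2, with medians of 22695 and 20679 UMIs, and 1883 and 2486 non-cycling cells, with medians of 19836 and 20010 UMIs. Non-cycling thus means that no core gene was found among 5000 UMIs, and not that a cell held none. With all UMIs of a cell used, only 302 and 483 cells had no core gene. Of the non-cycling cells, 427 and 773 held at most 1 gene of an S phase list. No IGF gene took part in the choice of classes. UMIs were summed per library and class and tested with edgeR's quasi-likelihood test with the library as a block, and a call needed 3 things: a p under 0.05 after Benjamini-Hochberg adjustment, a log2 fold change of 0.5 or more in size, and agreement in sign between the libraries. Of the 9 IGF genes tested, 6 fell in cycling cells, 0 rose and 3 did not pass. Among all 17014 genes tested 18.1% were called, 9.76% lower and 8.35% higher. The median log2 fold change of the 9 was -0.54, against -0.01 over all genes. Whether fewer cells held a gene's RNA or each held less cannot be told apart from such sums.

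Both ligands fell in cycling cells. IGF1 was at 0.196 and 0.257 CPM in cycling cells of libraries 1 and 2, against 1.20 and 2.97 CPM in non-cycling cells. The classes did not overlap, and the log2 fold change was -3.24 ± 0.28 (SE from the fit to 2 libraries, adjusted p = 8.29e-15, edgeR). The libraries alone gave -2.48 and -3.48. The counts are small: 18 and 27 IGF1 UMIs in cycling cells, against 45 and 148 in non-cycling cells, where they came from 29 and 79 cells and 1 cell alone gave 10 and 11 of them. Library by library the ratio of cycling to non-cycling CPM was 0.163 (exact binomial 95% interval 0.0887-0.287) and 0.0865 (0.0551-0.131). IGF2 was at 1.70 and 1.30 CPM in cycling cells, against 3.32 and 2.61 CPM in non-cycling cells, a log2 fold change of -1.04 ± 0.17 (adjusted p = 6.40e-07, edgeR). The classes again did not overlap. IGF2 did not pass when classes were set from all UMIs of a cell without thinning (-0.17, adjusted p = 0.843).

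Of the binding proteins 4 of the 5 tested fell, by smaller amounts. IGFBP4 was at 3.99 and 2.48 CPM in cycling cells of libraries 1 and 2, against 5.83 and 5.50 CPM in non-cycling cells (log2 fold change -0.90 ± 0.14, adjusted p = 1.25e-05, edgeR), with a larger difference in library 2 (-1.23) than in library 1 (-0.57). IGFBP5 was at 9.95 and 13.7 CPM in cycling cells, against 16.2 and 22.2 CPM in non-cycling cells (-0.76 ± 0.07, adjusted p = 3.79e-13, edgeR). In both genes the cycling cells of each library lay below both values of the non-cycling cells. IGFBP6 was at 686 and 660 CPM in cycling cells, against 928 and 916 CPM in non-cycling cells, again with no overlap (-0.51 ± 0.05, adjusted p = 1.72e-12, edgeR). IGFBP7 was at 37.4 and 19.4 CPM in cycling cells, against 51.3 and 27.9 CPM in non-cycling cells, so that the classes overlapped across libraries but not within one (-0.54 ± 0.06, adjusted p = 4.06e-11, edgeR). IGFBP6 and IGFBP7 lay close to the limit of 0.5 and did not pass without the 8% of cells with the most UMIs (-0.49 and -0.46) or with classes from all UMIs (-0.34 and -0.35).

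IGFBP2 and IGF2R were not called. IGFBP2 was at 102 and 98.95 CPM in cycling cells, against 104 and 101 CPM in non-cycling cells, and its log2 fold change of -0.08 had a 95% interval of -0.19 to 0.02. With classes from all UMIs it was 0.30, in the other direction and not called. IGF2R was at 33.2 and 15.5 CPM in cycling cells, against 33.1 and 14.4 CPM in non-cycling cells, with a log2 fold change of -0.01 and an interval of -0.14 to 0.13. IGF1R, the signalling receptor, was at 47.8 and 75.9 CPM in cycling cells, against 61.2 and 93.8 CPM in non-cycling cells. Its log2 fold change of -0.39 ± 0.05 had an adjusted p of 2.17e-08 (edgeR) and the same sign in both libraries, but was smaller than the limit of 0.5, so IGF1R did not pass. IGFBP3 had 3 and 1 UMIs in cycling cells and 0 and 3 in non-cycling cells.

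With the replicate block left out, only IGFBP6 passed among the IGF genes (-0.51, adjusted p = 0.0493), and the adjusted p of the other 5 that had fallen was between 0.116 and 0.688. The summed stromal markers moved in the same direction as the IGF genes, at 5313 and 6579 CPM in cycling cells, against 7191 and 9488 CPM in non-cycling cells. The mural list summed to 22.4 and 31.6 CPM in cycling cells, against 27.8 and 41.2 CPM in non-cycling cells. Their part in the result was not tested.

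**Figure D2:**
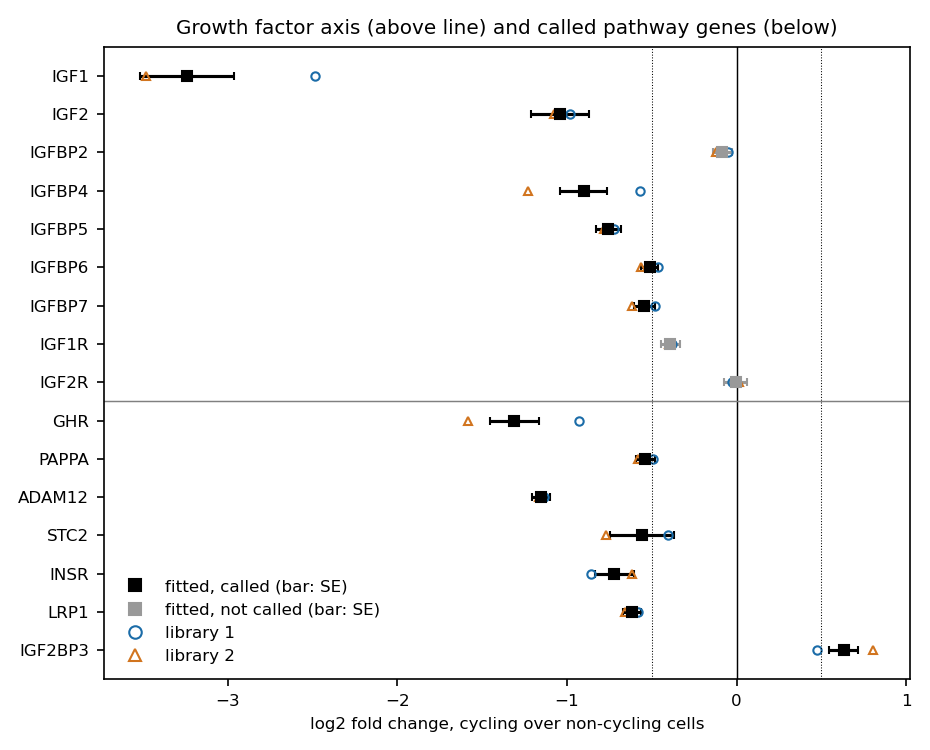
Log2 fold change of cycling over non-cycling cells for the 9 IGF genes tested (above the line) and 7 of the 8 called genes of the wider pathway (below). Squares are the fit with its SE (black called, grey not called), open circles library 1 and triangles library 2 with a prior count of 2, and dotted lines the limits of 0.5; IGF1 is lowest at -3.24, IGFBP2 and IGF2R sit at -0.08 and -0.01, and IGF2BP3 is the only called gene shown above 0.

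The levels were also read along the number of core cycle genes found in a cell, as 0, 1-2, 3-5, 6-8 and 9 or more of the 15. In library 1 IGF1 stood at 1.20, 0.746, 0.251, 0.106 and 0.216 CPM along this series, and in library 2 at 2.97, 1.23, 0.216, 0.296 and 0.262 CPM. In library 2 it was already lower in cells with 1 or 2 core genes than in cells with 0, beyond counting error, and in both libraries the last 3 groups could not be told apart. IGF2 stood at 3.32, 2.16, 1.59, 1.87 and 1.66 CPM in library 1 and at 2.61, 2.06, 1.35, 1.30 and 1.25 CPM in library 2, with overlapping intervals between neighbours except the first pair in library 1.

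IGFBP6 fell at every step in both libraries, with no overlap of the counting intervals of neighbours. Its levels were 928, 885, 735, 678 and 631 CPM in library 1 and 916, 854, 706, 644 and 626 CPM in library 2. IGF1R had a lower value at each of the 4 steps, with 61.2, 60.9, 51.4, 46.5 and 44.4 CPM in library 1 and 93.8, 90.5, 82.0, 75.1 and 70.1 CPM in library 2. Its first and last pairs of neighbours overlapped in both libraries, and so did 3-5 and 6-8 core genes in library 1. Only 1 step of IGFBP5 exceeded counting error, that between 1-2 and 3-5 core genes. It stood at 16.2, 14.9, 10.6, 8.66 and 10.4 CPM in library 1 and 22.2, 21.98, 13.4, 13.55 and 14.3 CPM in library 2. IGFBP4 stood at 5.83, 6.03, 4.55, 3.71 and 3.57 CPM in library 1 and 5.50, 4.38, 3.40, 2.16 and 1.81 CPM in library 2. IGFBP7 stood at 51.3, 54.5, 43.3, 34.1 and 33.3 CPM and at 27.9, 23.9, 20.1, 19.8 and 18.3 CPM. IGFBP2 stayed between 96.8 and 105 CPM in all bins of both libraries, and only its last step in library 1, from 105 to 96.8 CPM, exceeded counting error. IGF2R stayed between 32.1 and 34.1 CPM in library 1 and between 14.3 and 17.2 CPM in library 2. Its rise in library 2 from 14.6 CPM at 1-2 core genes to 17.2 CPM at 3-5 exceeded counting error.

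**Figure D3:**
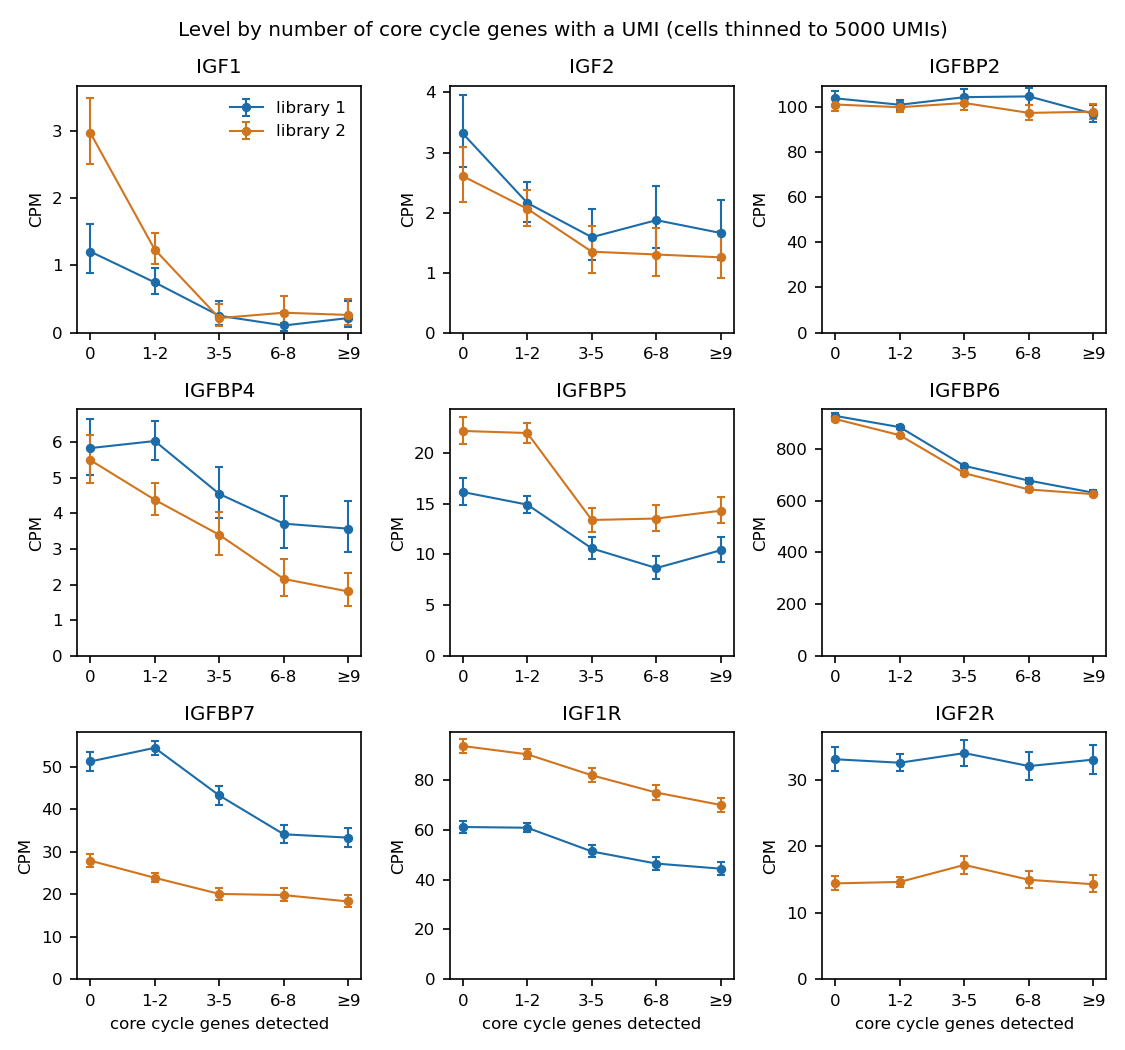
CPM of each tested IGF gene (linear axis from 0) in cells grouped by the number of the 15 core cycle genes with a UMI, for library 1 (blue) and library 2 (orange), with exact Poisson 95% intervals. IGFBP6 and IGF1R are lower at each step along the whole series, for IGF1R with overlapping intervals at some steps. IGF1 and IGFBP5 reach their low level by 3-5 core genes. IGFBP2 and IGF2R are nearly level, apart from a higher IGF2R value at 3-5 core genes in library 2.

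The share of cells with a UMI, all thinned to 5000 UMIs, was also lower in cycling cells for the called IGF genes and IGF1R. The exact binomial 95% intervals of the classes overlapped for IGF2 in library 1 and for IGFBP4 and IGFBP7 in library 2. An IGF1 UMI was found in 2 of 3855 cycling cells of library 1 and 5 of 4608 of library 2 (0.0519% and 0.109%), against 10 of 1883 and 28 of 2486 non-cycling cells (0.531% and 1.13%). IGF2 was found in 0.882% and 0.781% of cycling cells, against 1.59% and 1.61% of non-cycling cells. IGFBP5 was found in 4.93% and 5.99% of cycling cells, against 7.59% and 9.81% of non-cycling cells. IGF1R was found in 20.5% and 30.8% of cycling cells, against 26.2% and 37.1% of non-cycling cells. For IGFBP6 the shares were 92.2% and 90.7% in cycling cells, against 94.6% and 94.1% in non-cycling cells, so that at least 90.7% of cells in each class held it. IGFBP4 was in 2.00% and 1.24% of cycling cells, against 3.35% and 2.05% of non-cycling cells. For IGFBP7 the shares were 16.9% and 9.24%, against 20.6% and 11.3%. The shares of IGFBP2 and IGF2R were slightly higher in cycling cells, with overlapping intervals in both libraries. IGFBP2 was in 25.5% and 25.3% of cycling cells, against 23.4% and 23.7% of non-cycling cells. IGF2R was in 15.6% and 7.70% of cycling cells, against 14.9% and 7.16% of non-cycling cells. From these shares 978 cells of library 1 and 386 of library 2, which had fewer than 5000 UMIs, were left out.

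**Figure D4:**
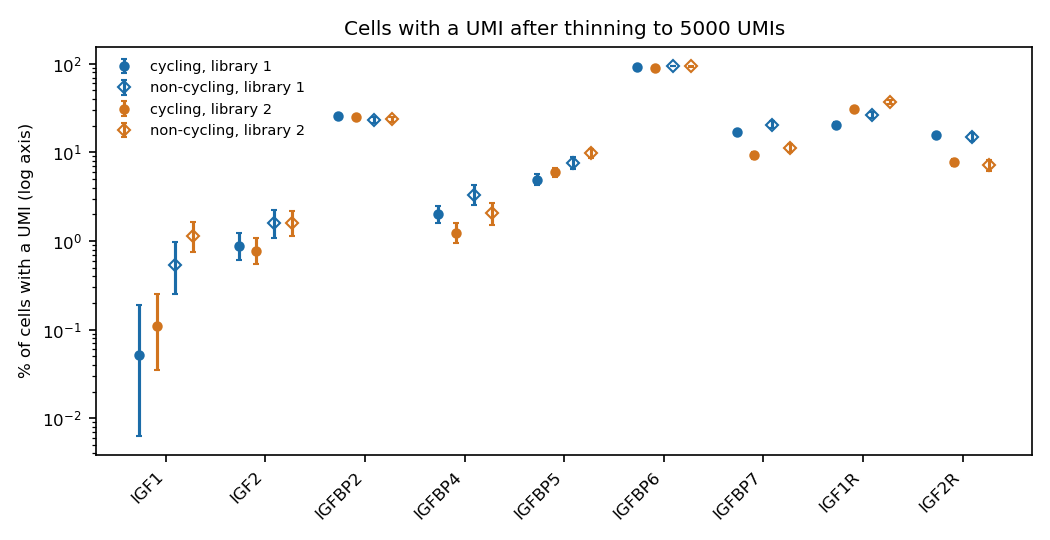
Share of cells with at least 1 UMI of each gene after thinning to 5000 UMIs (log axis) in cycling (filled circles) and non-cycling cells (open diamonds) of library 1 (blue) and library 2 (orange), with exact binomial 95% intervals. The cycling shares of IGF1 are 0.0519% and 0.109%, below both non-cycling shares, while those of IGFBP2 are slightly above with overlapping intervals.

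Within the cycle, late-cycle cells were set against S phase cells. Cycling cells with at least 2 more G2 and M phase than S phase list genes were called late-cycle (2858 and 3429 cells), and those with the reverse S phase (441 and 552). None of the 9 IGF genes tested was called in either direction by edgeR, where 6.31% of 15812 genes were called, 2.38% higher and 3.93% lower. At an unadjusted p under 0.05 stood 2 of the 9, IGFBP2 and IGF2R, and DESeq2 also called 0. IGFBP2 was at 98.98 and 96.9 CPM in late-cycle cells, against 108 and 113 CPM in S phase cells, with no overlap (log2 fold change -0.16 ± 0.05, adjusted p = 0.00485, edgeR, below the limit of 0.5 in size). IGF2R was at 33.9 and 16.0 CPM in late-cycle cells, against 25.9 and 14.5 CPM in S phase cells (0.30 ± 0.09, adjusted p = 0.00528, edgeR, also below the limit). The intervals of the others were -0.15 to 0.07 for IGF1R, -0.09 to 0.04 for IGFBP6, -0.13 to 0.18 for IGFBP7, -0.11 to 0.34 for IGFBP5 and -0.78 to 0.41 for IGF2. IGFBP4 had an interval of -0.22 to 0.66 and opposite signs in the libraries, with a ratio of late-cycle to S phase CPM of 1.75 (exact binomial 95% interval 1.16-2.75) in library 1 and 0.765 (0.532-1.13) in library 2. IGF1 rested on 11 and 20 UMIs in late-cycle cells and 5 and 4 in S phase cells, with an interval of -2.29 to 0.52.

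In the wider pathway, 41 of 42 listed genes were in the files (AKT1 was not found by symbol) and 38 passed the filter on low counts in the cycling comparison. Of these 7 fell, 1 rose and 30 did not pass, with a median log2 fold change of -0.08. These shares, 7 and 1 of 38, stand beside 9.76% and 8.35% over all genes. GHR, the growth hormone receptor that drives IGF1 production in many tissues, was at 2.23 and 2.59 CPM in cycling cells, against 4.20 and 7.34 CPM in non-cycling cells (-1.31 ± 0.14, adjusted p = 8.75e-09, edgeR). Both ADAM12 and PAPPA, proteases that cut IGF binding proteins, fell. ADAM12 was at 148 and 269 CPM in cycling cells, against 320 and 567 CPM in non-cycling cells (-1.15 ± 0.05, adjusted p = 7.72e-27, edgeR). PAPPA was at 37.6 and 56.1 CPM in cycling cells, against 52.0 and 78.7 CPM in non-cycling cells (-0.54 ± 0.06, adjusted p = 3.04e-12, edgeR). STC2, a stanniocalcin that inhibits PAPPA, fell as well, at 2.48 and 0.751 CPM in cycling cells, against 3.24 and 1.22 CPM in non-cycling cells (-0.56 ± 0.19, adjusted p = 0.0118, edgeR).

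Among receptors outside the axis, INSR, the insulin receptor, fell by 0.72 and LRP1, an endocytic receptor that binds IGFBP3, by 0.62 on the log2 scale. INSR was at 2.72 and 5.25 CPM in cycling cells, against 4.87 and 7.56 CPM in non-cycling cells. LRP1 was at 91.8 and 107 CPM in cycling cells, against 135 and 159 CPM in non-cycling cells. IGF2BP3, which binds IGF2 mRNA, was the gene that rose, at 17.2 and 11.3 CPM in cycling cells, against 12.1 and 6.06 CPM in non-cycling cells (0.63 ± 0.09, adjusted p = 3.16e-08, edgeR). The classes overlapped across libraries for it but not within one. Of 37 pathway genes tested 0 rose and 2 fell in late-cycle cells, beside 2.38% and 3.93% over all genes. INSR was at 2.21 and 4.48 CPM in late-cycle cells, against 4.42 and 8.23 CPM in S phase cells (-0.90 ± 0.17). PIK3CB, a PI3K catalytic subunit, was at 1.99 and 3.67 CPM, against 2.92 and 5.89 CPM (-0.61 ± 0.20). IGF2BP1 (0.82 ± 0.64), SOCS2 (-0.67 ± 0.31) and STC1 (-0.66 ± 0.68) had values of similar size that did not pass.

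Non-cycling cells were then divided by how much of 4 gene lists they held, to see whether the IGF genes vary among cells classed as non-cycling. For each list, cells at or above the 75th percentile of its summed thinned UMIs were called high and those at or below the 25th low. These classes are ranges and not cell types, the 4 comparisons share the same non-cycling cells, and none of the lists holds an IGF gene. The contractile list holds 9 genes such as ACTA2 and TAGLN, which mark myofibroblast-like contraction. High cells numbered 504 and 664 (medians of 18480.5 and 20794 UMIs) and low cells 488 and 726 (20142 and 19191.5). Of 9 IGF genes 2 rose and 2 fell in contractile-high cells, where 9.75% of 13269 genes were called, 4.91% higher and 4.84% lower.

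IGFBP5 was at 7.07 and 9.77 CPM in contractile-high cells, against 24.0 and 34.7 CPM in contractile-low cells. The groups lay far apart in each library, and the log2 fold change was -1.77 ± 0.13 (adjusted p = 6.33e-10, edgeR). IGFBP2 was at 74.3 and 76.2 CPM in contractile-high cells, against 143 and 141 CPM in contractile-low cells (-0.89 ± 0.08, adjusted p = 5.65e-09, edgeR). This neighbour of IGFBP5 had shown no called difference with cycling. IGF1 was at 2.81 and 6.42 CPM in contractile-high cells, against 0.209 and 0.870 CPM in contractile-low cells (3.07 ± 0.37, adjusted p = 1.22e-06, edgeR). It rested on 27 and 90 UMIs in high cells and 2 and 12 in low cells, so the ratio was 13.4 (3.38-117) in library 1 and 7.38 (4.02-14.8) in library 2. IGFBP4 was at 6.96 and 8.20 CPM in contractile-high cells, against 5.53 and 4.21 CPM in contractile-low cells (0.71 ± 0.21, adjusted p = 0.0203, edgeR), and did not pass with DESeq2 (adjusted p = 0.858). IGFBP7 was at 55.8 and 44.2 CPM in contractile-high cells, against 49.3 and 19.3 CPM in contractile-low cells, and did not pass (0.68 ± 0.38), since the libraries differed (0.19 and 1.22). With another random thinning it did (0.75). IGFBP6 (-0.29 ± 0.05, adjusted p = 0.000509, edgeR) missed only the limit of 0.5. So did IGF2R (-0.44 ± 0.12, adjusted p = 0.0119, edgeR) and IGF1R (0.24 ± 0.08, adjusted p = 0.0438, edgeR). IGF2 was not called (0.46 ± 0.26).

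For the collagen list, 6 of whose 8 genes were found, high cells numbered 474 and 636 and low cells 533 and 673. Their depth differed: medians were 15722 and 14333.5 UMIs in collagen-high cells, against 22138 and 23633 in collagen-low cells, and the part of that gap in the results was not tested. Of 9 IGF genes 2 rose and 0 fell, where 8.38% of 13182 genes were called, 4.54% higher and 3.84% lower. IGF1 was at 2.48 and 9.11 CPM in collagen-high cells, against 0.0851 and 0.196 CPM in collagen-low cells. The values in collagen-low cells rest on 1 and 3 UMIs. The fitted log2 fold change was 5.29 ± 0.44, and the ratios were 29.1 (4.65-1206) in library 1 and 46.5 (15.5-229.6) in library 2. IGF1 UMIs were found in 16 of 474 and 53 of 636 collagen-high cells, against 1 of 533 and 2 of 673 collagen-low cells. IGFBP4 was at 7.30 and 9.11 CPM in collagen-high cells, against 4.001 and 3.07 CPM in collagen-low cells (1.23 ± 0.23, adjusted p = 0.00148, edgeR), and did not pass with DESeq2 (adjusted p = 0.134).

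IGFBP5 had the opposite sign here to that with the contractile list, though a difference between the comparisons was not tested. It was at 28.6 and 24.8 CPM in collagen-high cells, against 10.9 and 19.1 CPM in collagen-low cells. It did not pass (0.80 ± 0.24, adjusted p = 0.0802, edgeR), but passed without the filter on low counts (0.79), with another thinning (0.60), without the cells with the most UMIs (0.82) and between the upper and lower 10% of cells (0.87). IGFBP2 was at 97.1 and 49.0 CPM in collagen-high cells, against 127 and 149 CPM in collagen-low cells (-1.001 ± 0.48), with values of -0.42 in library 1 and -1.60 in library 2, and was not called. It passed without the cells with the most UMIs (-0.90). IGFBP6 (-0.27 ± 0.06, adjusted p = 0.00301, edgeR) and IGF1R (0.26 ± 0.08, adjusted p = 0.0353, edgeR) missed only the limit of 0.5. Their signs were the same as with the contractile list.

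The inflammatory list of 16 genes, such as the chemokine gene CCL2 and the cytokine gene IL6, divided non-cycling cells into 511 and 692 high and 550 and 750 low cells, with medians of 20412 and 21268 UMIs in high and 18638 and 18228 in low cells. Of 9 IGF genes 1 rose and 1 fell, where 1.52% of 13370 genes were called, 1.33% higher and 0.187% lower. IGF2 was at 4.54 and 3.39 CPM in inflammatory-high cells, against 2.13 and 2.05 CPM in inflammatory-low cells (0.92 ± 0.27, adjusted p = 0.0470, edgeR). It did not pass with RLE scaling, another thinning, the upper and lower 10% of cells or DESeq2. IGFBP5 was at 13.6 and 20.1 CPM in inflammatory-high cells, against 25.1 and 26.5 CPM in inflammatory-low cells (-0.57 ± 0.12, adjusted p = 0.00218, edgeR), and did not pass with another thinning (-0.49) or DESeq2 (-0.61, adjusted p = 0.780). IGFBP6 was at 1010.4 and 1038 CPM in inflammatory-high cells, against 889 and 817 CPM in inflammatory-low cells, with no overlap, a difference of 0.29 ± 0.05 below the limit. IGF1 (-1.07 ± 0.34, adjusted p = 0.0736, edgeR) was not called, but passed between the upper and lower 10% of cells (-2.30) and with another thinning (-1.68).

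The endoplasmic reticulum stress list of 15 genes, led by the chaperone gene HSPA5, gave 485 and 648 high and 549 and 757 low cells, with medians of 4480 and 4552 genes in high and 4020 and 4261 in low cells. By edgeR 0 of 9 IGF genes were called, as by DESeq2, where 0.802% of 13209 genes were called, 0.295% higher and 0.507% lower. IGFBP6 (-0.32 ± 0.06), IGFBP2 (-0.38 ± 0.08) and IGF1R (-0.31 ± 0.09) had the largest values among the binding proteins and receptors, and had unadjusted p-values under 0.05. IGFBP6 also passed adjustment (adjusted p = 0.0236, edgeR) and missed only the limit of 0.5. IGFBP2 (adjusted p = 0.0563, edgeR) and IGF1R (adjusted p = 0.124, edgeR) did not pass adjustment. IGFBP6 was at 831 and 841 CPM in high cells, against 1066 and 966 CPM in low cells. IGFBP7 was at 55.6 and 25.3 CPM in high cells, against 42.1 and 35.1 CPM in low cells. Its ratio was above 1 in library 1 (1.32, 1.16-1.504) and below 1 in library 2 (0.719, 0.625-0.827). In the contractile, collagen and inflammatory comparisons no IGF gene passed without the replicate block.

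**Figure D5:**
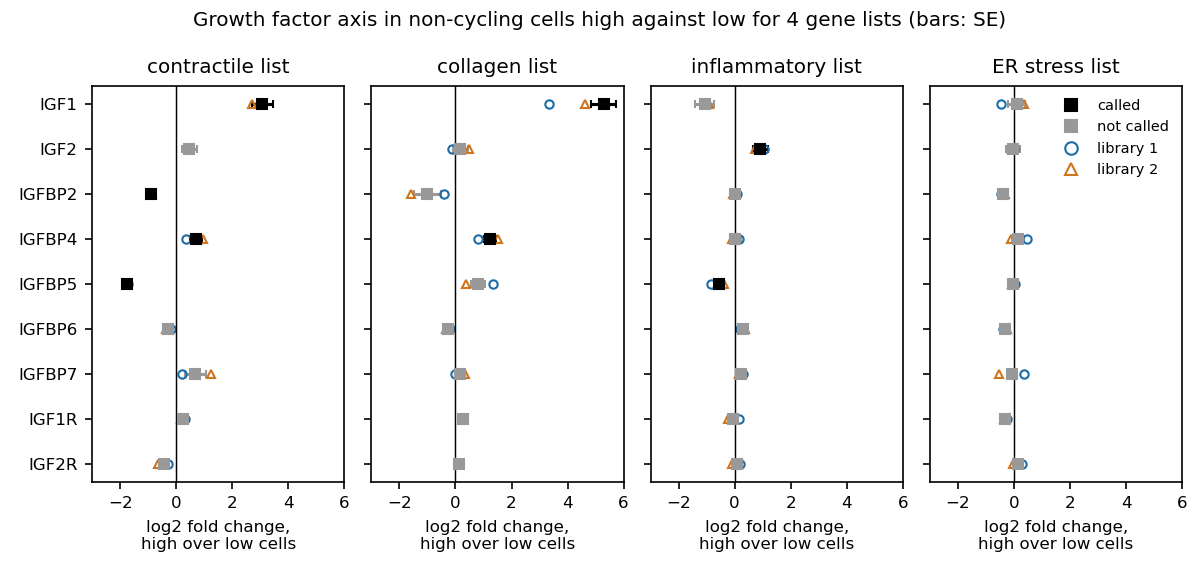
Log2 fold change of list-high over list-low non-cycling cells for the 9 IGF genes tested and 4 lists, with the fit and its SE (black called, grey not called), library 1 (circles) and library 2 (triangles; both with a prior count of 2). IGFBP5 is at -1.77 with the contractile and 0.80 with the collagen list, IGF1 is above 3 in both, and with the endoplasmic reticulum stress list the fits lie between -0.38 and 0.15 and the values of single libraries between -0.52 and 0.45.

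Of the pathway list 35 genes were tested in each of these comparisons. With the contractile list 3 rose and 2 fell, beside 4.91% and 4.84% over all genes. ADAM12 was at 441 and 675 CPM in contractile-high cells, against 225 and 397 CPM in contractile-low cells (0.89 ± 0.06). STC2 rose by 1.29 ± 0.42, IGF2BP3 had a log2 fold change of -0.88 ± 0.24 and SOCS2, a brake on growth hormone signalling, of -1.36 ± 0.47. With the collagen list 3 rose and 0 fell, beside 4.54% and 3.84% over all genes. GHR was at 5.70 and 13.3 CPM in collagen-high cells, against 2.55 and 4.37 CPM in collagen-low cells (1.44 ± 0.21). IRS1, the adaptor that docks to IGF1R, rose by 0.57 ± 0.14, and GRB10, an adaptor that restrains the receptor, by 0.51 ± 0.08. STC2 (0.93 ± 0.35), SOCS2 (0.88 ± 0.39) and INSR (0.64 ± 0.23) did not pass. With the inflammatory list 0 of 35 were called by edgeR, beside 1.52% over all genes. The largest values were those of GHR (-0.55 ± 0.20), INSR (-0.40 ± 0.19), STC2 (-0.37 ± 0.33), PIK3CA (-0.30 ± 0.13) and PAPPA (0.28 ± 0.08). With the endoplasmic reticulum stress list 0 of 35 were called, beside 0.802% over all genes. The values of SOCS2 (0.54 ± 0.45), IGF2BP3 (0.48 ± 0.16), PAPPA (-0.41 ± 0.11), MAP2K1 (0.32 ± 0.11) and LRP1 (-0.32 ± 0.08) were largest.

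The genes most like each IGF gene were sought across non-cycling cells, 1883 in library 1 and 2486 in library 2, as the lower of the Pearson correlations of log(1 + UMIs per 10000) in the libraries, among 8435 genes. These are descriptions over cells that share a library and depth. Among the 10 genes only IGFBP2, IGFBP5 and IGFBP6 had a partner at 0.2 or more. IGFBP6 was most like S100A6, a small calcium-binding protein (0.38 in library 1 and 0.42 in library 2), CD99, a cell surface glycoprotein (0.34 and 0.36), and LGALS1, a galectin (0.33 and 0.38). IGFBP2 was most like CD99 (0.23 and 0.23) and S100A6 (0.21 and 0.26). IGFBP5 was most like COL14A1, a fibril-associated collagen (0.23 and 0.22), CD99 (0.21 and 0.23) and KCNK12, a potassium channel gene (0.20 and 0.20). Among themselves the IGF genes were weakly related: IGFBP2 and IGFBP6 had 0.16 and 0.17, IGFBP5 and IGFBP6 0.10 and 0.13, and the neighbours IGFBP2 and IGFBP5 0.08 and 0.08. The receptors IGF1R and IGF2R had 0.10 and 0.09, and IGFBP4 and IGFBP6 had negative values of -0.11 and -0.07.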

How the data were processed

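Per the labels, libraries were made with Chromium Next GEM Single Cell 3ʹ v3.1 chemistry from polyadenylated RNA. The authors deposited raw UMI counts per gene and barcode. Per the file headers the software was Cell Ranger 7.0.0, and the submitters' processing notes list Cell Ranger 7.00 and the build Sscrofa11.1. Annotation, cell calling and the handling of intronic reads, which bears on long genes such as IGF1R, were not given in the sources used here. Barcodes with at least 1000 genes were kept (86.2% and 92.5%), no doublets were removed, and cells of at least 5000 UMIs were thinned to 5000 to set classes. Full counts were summed per library and class and fitted with edgeR 4.0.16 in R 4.3.3 (quasi-likelihood, TMM, filterByExpr, robust), with the library as a block because both classes come from the same library. P-values were adjusted over all genes tested. With 4 sums per comparison only 1 residual degree of freedom was left for a gene, and the spread was therefore borrowed from all genes, on which the smallest p-values depend. Each SE is the size of the log2 fold change over the square root of the edgeR F, and is not a spread measured between the 2 libraries. Intervals of fold changes are 1.96 SE and can be narrower than the test implies. For IGFBP2 with the collagen list the interval of -1.94 to -0.06 left out 0, though the unadjusted p was 0.209 (edgeR). On simulated data with 200 genes changed 2-fold, 98.5% to 100% were recovered in the 6 comparisons, with 0 to 10 false calls. The changed genes were drawn from those above 5 CPM, and all genes were given 1 common spread. This recovery therefore does not cover scarcer genes such as IGF1 and IGF2. Alternatives were DESeq2 1.42.0, no block, RLE scaling, no filter on low counts, another thinning, a minimum of 2000 genes, leaving out the 8% of cells with the most UMIs, each library alone and other class limits. The IGF genes, lists and comparisons were chosen with earlier results of these data known. Named genes are all 10 IGF genes, the pathway genes called with cycling, the 5 of largest change elsewhere and the 3 most alike; GRB10 was named in addition after its value was seen. The values of 1 called pathway gene, which stays in the counts, are not reported here. Names of genes with positions come from RefSeq.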

Additional observations from a re-analysis of the deposited data

Results flagged for a closer look

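Barcodes with fewer than 1000 genes, which enter no comparison, also held IGF axis UMIs above the limit that a count of 0 allows (3 UMIs, or 1.68 CPM in library 1 and 3.35 CPM in library 2). In library 1 these barcodes had 5.03 CPM of IGF2, 93.8 of IGFBP2, 2.23 of IGFBP4, 21.2 of IGFBP5, 691 of IGFBP6, 51.9 of IGFBP7, 79.9 of IGF1R and 35.7 of IGF2R. In library 2 they had 90.5 CPM of IGFBP2, 5.59 of IGFBP4, 29.0 of IGFBP5, 626 of IGFBP6, 26.8 of IGFBP7, 162 of IGF1R and 23.5 of IGF2R. IGF1 and IGFBP3 stayed at or under 1 UMI in both libraries. IGF1R was higher in these barcodes than in the cells of the same library, which had 56.2 and 85.5 CPM, and IGFBP6 was lower than the 802 and 782 CPM of the cells. What these barcodes hold was not tested.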

How the results depend on the processing

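No IGF gene that had been called changed sign under any alternative, and the median of all genes moved by less than 0.1 on the log2 scale. Without the replicate block, 323 genes were called higher and 53 lower with cycling, with 1 IGF gene lower. In the late-cycle, collagen, inflammatory and endoplasmic reticulum (ER) stress comparisons 0 genes and 0 IGF genes were then called, and with the contractile list 4 genes, all higher, and 0 IGF genes. The libraries pair the classes, so the block belongs to the design. Each library alone gave a value with no test.

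With DESeq2, 990 genes were lower with cycling, 224 higher and 206 lower in late-cycle cells, 294 higher and 225 lower with the contractile list, 320 and 121 with the collagen list, 60 and 2 with the inflammatory list and 18 and 16 with the ER stress list. It called 1 IGF gene higher with each of the contractile and collagen lists and 0 with the inflammatory list. Classes from all UMIs gave 1003 genes and 3 IGF genes lower with cycling. With no filter on low counts 44 genes were lower with the inflammatory list, and 105 higher and 169 lower with the ER stress list. The upper against the lower 10% of cells gave 993 higher and 812 lower with the collagen list, 71 lower with the inflammatory list, with 0 IGF genes higher and 2 lower, and 19 and 31 with the ER stress list. Another thinning gave 75 higher with the ER stress list and 0 IGF genes higher with the inflammatory list, as did RLE scaling, which called 16 genes lower there. Without the cells with the most UMIs 1 IGF gene, IGFBP2, was lower with the collagen list.

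Signs turned only for values not called. With cycling IGFBP2 was 0.30 with classes from all UMIs, and IGF2R 0.0058 with no filter, 0.0552 with another thinning and 0.0050 without the cells with the most UMIs. In late-cycle cells IGFBP6 was 0.0081 with no filter and 0.0042 at a margin of 4 genes, and IGFBP7 -0.0754 with another thinning and -0.10 at that margin. With the collagen list another thinning gave -0.12 for IGF2 and -0.0255 for IGF2R. With the inflammatory list IGFBP2 was -0.0017 with RLE, -0.0059 at 2000 genes, -0.11 without the cells with the most UMIs and -0.13 in the upper against the lower 10%, IGFBP4 -0.0112 with another thinning and -0.0088 without the cells with the most UMIs, and IGF1R 0.0284 with another thinning and 0.0080 in the upper against the lower 10%. With the ER stress list IGF1 was -0.0289 with DESeq2, -0.0012 without the cells with the most UMIs and -0.57 in the upper against the lower 10%. There IGF2 was 0.14 with another thinning and 0.50 in the upper against the lower 10%, IGFBP5 0.22 and 0.0261, and IGFBP7 0.0315 without the block, 0.0870 without the cells with the most UMIs and 0.14 in the upper against the lower 10%. The cause of these changes was not tested. IGFBP3, with 4 and 6 UMIs, could not be tested at this depth.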
